A study of Mus musculus with 24 samples.

Results

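The genes described here are 7 genes of cholesterol synthesis and its feedback control, Hmgcs1, Idi1, Fdps, Sqle, Lss, Cyp51 and Insig1, followed in the hippocampus of young and old mice after contextual fear conditioning. Every probe that carries one of these gene names on the array was taken, which gave 16 of the 41174 non-control probes and 7 of the 26176 genes tested. The arrays were hybridised with labelled RNA from whole hippocampus of C57Bl/6 mice, 1 mouse per array, with 24 arrays in 6 groups of 4. All probes of the 7 genes were well above background on all 24 arrays, and none was saturated.

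Fear conditioning was a single stay of 3 min in a conditioning chamber that ended with an electric foot shock of 0.7 mA for 2 s, and the hippocampi were taken 1 h later. The young fear and old fear groups were 3 and 16 months of age, and both received this training. The young control and old control groups were handled mice of the same ages that received no training. The young context group, aged 3 months, explored the same chamber and received no shock. The young shock-context group, also aged 3 months, was shocked at once on entering the chamber and explored it only afterwards, an order used as a test of associative learning. No allele or transgene is named for any group. Whole hippocampus is a mixed tissue, so fewer cells of a type and less RNA per cell cannot be told apart in any value below.

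Cholesterol in the brain is made locally, because the blood-brain barrier keeps lipoprotein cholesterol out, and it is a main component of myelin and of synaptic membranes. HMG-CoA synthase 1, the product of Hmgcs1, starts the committed part of the pathway. Idi1 and Fdps make the isoprenoid building blocks, Sqle and Lss turn squalene into the first sterol, lanosterol, and Cyp51 removes a methyl group from lanosterol on the way to cholesterol. Insig1 is the brake of the system: when sterols are plentiful its protein holds SCAP, the escort of the SREBP transcription factors, in the endoplasmic reticulum, and Insig1 is itself a target gene of SREBP.

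Several of these genes have more than 1 probe, and the changes differed between probes of one gene, so the probes are part of the result. Each gene is represented below by its brightest probe, called its leading probe. The sequences shown are those of the probes of Hmgcs1, Idi1 and Insig1 whose ratios to the leading probe are given by array below. Another probe and the leading probe of Cyp51 are shown beside them. They are the 60-base sequences of the array files, written 5′ to 3′ in lower case.
Hmgcs1 probe A_52_P388072: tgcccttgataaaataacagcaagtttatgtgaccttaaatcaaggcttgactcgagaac
Idi1 probe A_52_P441634: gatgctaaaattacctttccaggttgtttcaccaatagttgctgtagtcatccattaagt
Cyp51 probe A_51_P485791: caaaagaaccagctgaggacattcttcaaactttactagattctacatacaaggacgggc
Cyp51 leading probe A_52_P636752: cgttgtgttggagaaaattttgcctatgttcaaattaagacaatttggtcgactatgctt
Insig1 probe A_52_P393392: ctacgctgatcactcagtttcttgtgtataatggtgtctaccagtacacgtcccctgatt

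In the mm9 coordinates of the array files the Hmgcs1 probe lies at chr13_random:117667-117726 on the minus strand, 2860 bases upstream of the leading probe A_51_P146941 in the direction of transcription. The third Hmgcs1 probe, A_52_P119039, is listed with another transcript and lies farther away on the same unplaced sequence. The Idi1 probe is given at chr2:53555566-53555625 on the minus strand, 1991 bases upstream of the leading probe A_51_P329711. RefSeq's table puts Idi1 on another chromosome, and that difference was not resolved. The Cyp51 probe A_51_P485791 covers chr5:4092033-4092439 on the minus strand, a span longer than the probe itself, so it joins sequence on both sides of an intron. The leading probe of Cyp51 lies nearer the 3′ end, at chr5:4083236-4083295. The Insig1 probe A_52_P393392 likewise joins exons over chr5:28401146-28401618 on the plus strand, 2687 bases upstream of the leading probe A_51_P290207. Exon numbers and the borders of untranslated regions were not used here.

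Levels below are log2 signals relative to the 75th percentile of the same array, so 0 is the signal of a probe at that percentile. Arrays of 1 group are named by the replicate number of their titles. Array pairs below are arrays 1 and 2, or 3 and 4, of one group in the first run. The control and fear groups, 16 arrays, are called the first scan run and the context and shock-context groups, 8 arrays, the second. The runs were told apart by the genome build in the array files, mm7 in the first and mm9 in the second. Scan dates were not used. In the first run the 75th percentile was 757 to 2137 intensity units and 86.2% to 93.8% of probes were well above background. In the second run the percentile was 3101 to 8369 units and 75.1% to 81.4% of probes were well above background. All 12 marker genes of hippocampal excitatory neurons were above background on all 24 arrays. The young fear arrays stood apart in markers of neighbouring tissue. The mean log2 level of 11 choroid plexus markers lay between -3.15 and -1.81 on them and between 0.67 and 1.41 in the young control group, and all 11 were lower by the test used for all genes, for example Folr1, a folate receptor, which fell by 3.66. All 11 remained above background on every young fear array. The mean level of 12 thalamus markers was 0.71 to 0.92 in the young fear group against -0.38 to -0.07 in the young control group. The old fear group was at 0.48 to 1.14 in the thalamus markers against -0.47 to 0.23 in the old control group, and its choroid plexus markers, at 0.71 to 1.12, lay within the range of the old control group. Of 15 oligodendrocyte and myelin markers 6 were higher and 3 lower in the young fear group than in the young control group. The counts were 2 higher and 4 lower of 11 astrocyte markers, 1 and 4 of 10 microglia markers, 3 and 3 of 10 endothelial and mural markers and 2 and 2 of the 12 hippocampal neuron markers, beside 13.1% of all genes higher and 30.3% lower. The part of any other tissue or cell type in the results below was not tested.

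Fear conditioning at 3 months was first set against handling at 3 months. Of the 7 genes, Insig1 was higher in the young fear group and Hmgcs1 lower, by limma with Benjamini-Hochberg adjustment over all genes at a threshold of 0.05. Among all genes tested, 43.4% passed the same threshold, 13.1% higher and 30.3% lower. The share of members that passed, 2 of 7, did not stand above that background. The median change of all genes was -0.35 on the log2 scale and that of the 7 members was -0.14. With other scalings the share of called genes that were higher moved from 30.1% to 43.6% with quantile normalization, 44.3% with median scaling and 42.6% in the deposited table, so a direction here is relative to the scaling. The median of all genes was -0.15, -0.21 and -0.080 under those 3 scalings.

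Hmgcs1, the entry enzyme, had leading-probe levels of 4.37, 4.59, 4.34 and 4.25 on young control arrays 1 to 4. On young fear arrays 1 to 4 they were 4.37, 4.30, 3.82 and 3.94. Arrays 3 and 4 of the fear group were below every control, while arrays 1 and 2 lay within the control range. The difference was -0.28 ± 0.11 on the log2 scale (SE of the fit, n = 4 and 4, adjusted p = 0.047, limma), and it turned to 0.11 with quantile normalization and 0.077 in the deposited table. It no longer passed without young control array 1, 2 or 3 or without young fear array 3 or 4, where the adjusted p was 0.0622 to 0.176, nor with the slide as a replicate block (adjusted p = 0.0536, limma). Relative to the median of all genes the change was 0.069.

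The second Hmgcs1 probe, A_52_P388072, gave another picture. Its levels were -2.96, -3.16, -2.72 and -2.48 in the young control group. In the young fear group they were -0.50, -0.38, -1.15 and -1.36. Every fear array was above every control array, and the difference was 1.98 ± 0.19 on the log2 scale, a 3.96-fold rise (limma over all 38768 probes tested, adjusted p = 8.95e-08). Among all probes 44.7% passed that threshold. The call held in all 21 alternative settings run, with values from 1.48 to 2.19. The third Hmgcs1 probe, A_52_P119039, differed by 0.01 (adjusted p = 0.966, limma). Thus in the fit reported 1 probe of Hmgcs1 rose, another fell and the third passed neither way in the same RNA. The rise held in every setting run, while the fall changed sign with quantile normalization and in the deposited table, as given above.

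Idi1, the isomerase that interconverts the smallest isoprenoid building blocks, had leading-probe levels of 2.29, 2.73, 2.14 and 2.22 in the young control group. In the young fear group they were 2.08, 2.07, 1.86 and 2.16. The groups overlapped in a single pair of arrays, young fear array 4 and young control array 3. The difference of -0.30 ± 0.15 did not pass (adjusted p = 0.109, limma). The other Idi1 probe, A_52_P441634, was at -3.17, -3.18, -2.85 and -2.84 in the controls and at -2.15, -1.95, -2.21 and -2.29 after fear conditioning. All 4 fear arrays were above all 4 controls, a rise of 0.86 ± 0.11 or 1.81-fold (adjusted p = 2.69e-06, limma over all probes). That call was lost in 1 of 21 settings, background correction with normexp, where the change was 0.35 with an adjusted p of 0.447.

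Fdps, which makes farnesyl diphosphate, had leading-probe levels of 2.43, 2.12, 2.28 and 2.33 in the young control group. In the young fear group they were 2.15, 2.18, 2.18 and 1.83. Young control array 2 lay below 3 of the fear arrays, and the difference of -0.20 ± 0.10 did not pass (adjusted p = 0.0913, limma). The other Fdps probe, A_52_P593965, listed with a different transcript, was at -1.85, -1.72, -1.06 and -1.52 in the controls and at -2.11, -2.16, -2.40 and -2.43 in the fear group. Here the groups did not overlap, and the probe fell by 0.74 (SE 0.17, adjusted p = 0.00116, limma over all probes).

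Sqle, the epoxidase that acts on squalene, has 1 probe. Its levels were 2.36, 2.27, 2.33 and 2.20 in the young control group and 2.22, 2.32, 2.09 and 1.94 in the young fear group. The groups overlapped, and the difference was -0.14 ± 0.08 (adjusted p = 0.165, limma). Lss, lanosterol synthase, was at 0.72, 0.82, 0.15 and 0.28 in the young control group and at 0.85, 0.83, 0.47 and 0.62 in the young fear group. In both groups arrays 1 and 2 were above arrays 3 and 4, and the difference of 0.20 ± 0.13 did not pass (adjusted p = 0.203, limma). Within the 4 slides, each of which held 1 array of each group, the Lss difference ran from 0.01 to 0.34. The other Lss probes, A_51_P296487 and A_52_P168028, differed by -0.11 and -0.19 (adjusted p = 0.584 and 0.481, limma).

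Cyp51, the lanosterol demethylase, has 3 probes. The leading probe was at -0.25, -0.05, -0.32 and -0.49 in the young control group and at -0.05, -0.10, -0.03 and 0.23 in the young fear group. Control array 2 overlapped with the fear arrays, and the difference of 0.29 ± 0.12 did not pass (adjusted p = 0.0606, limma). The other probes were each without overlap. A_51_P485791 was at -2.08, -2.28, -2.0 and -2.07 in the controls against -1.34, -1.28, -1.49 and -1.60, a rise of 0.68 ± 0.12 or 1.60-fold (adjusted p = 7.82e-05, limma over all probes). That call was also lost with normexp alone, at 0.41 and an adjusted p of 0.265. A_52_P164161 was at -1.22, -1.05, -1.19 and -1.27 against -0.77, -0.77, -0.96 and -0.92, a rise of 0.33 ± 0.10 (adjusted p = 0.0117, limma over all probes). For Cyp51 all 3 differences were positive, and 2 of them passed.

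Insig1, the retention protein, had the largest change of the 7 leading probes. Its levels were -2.23, -2.23, -1.50 and -1.87 in the young control group. In the young fear group they were -1.14, -1.15, -1.62 and -1.63. Fear arrays 1 and 2 were above every control, while control array 3 was above fear arrays 3 and 4. The difference was 0.57 ± 0.14, a 1.49-fold rise (adjusted p = 0.00312, limma), and it was 0.92 relative to the median of all genes. Within the 4 slides it ran from -0.13 to 1.09 and was positive in 3. It passed in 21 of 22 alternative settings, and with normexp it was 0.40 with an adjusted p of 0.227. The other Insig1 probe, A_52_P393392, was at -3.51, -3.46, -2.89 and -3.01 in the controls and at -3.36, -3.22, -3.52 and -3.58 after fear conditioning, which overlapped, and its difference of -0.20 did not pass (adjusted p = 0.228, limma over all probes).

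**Figure D1:**
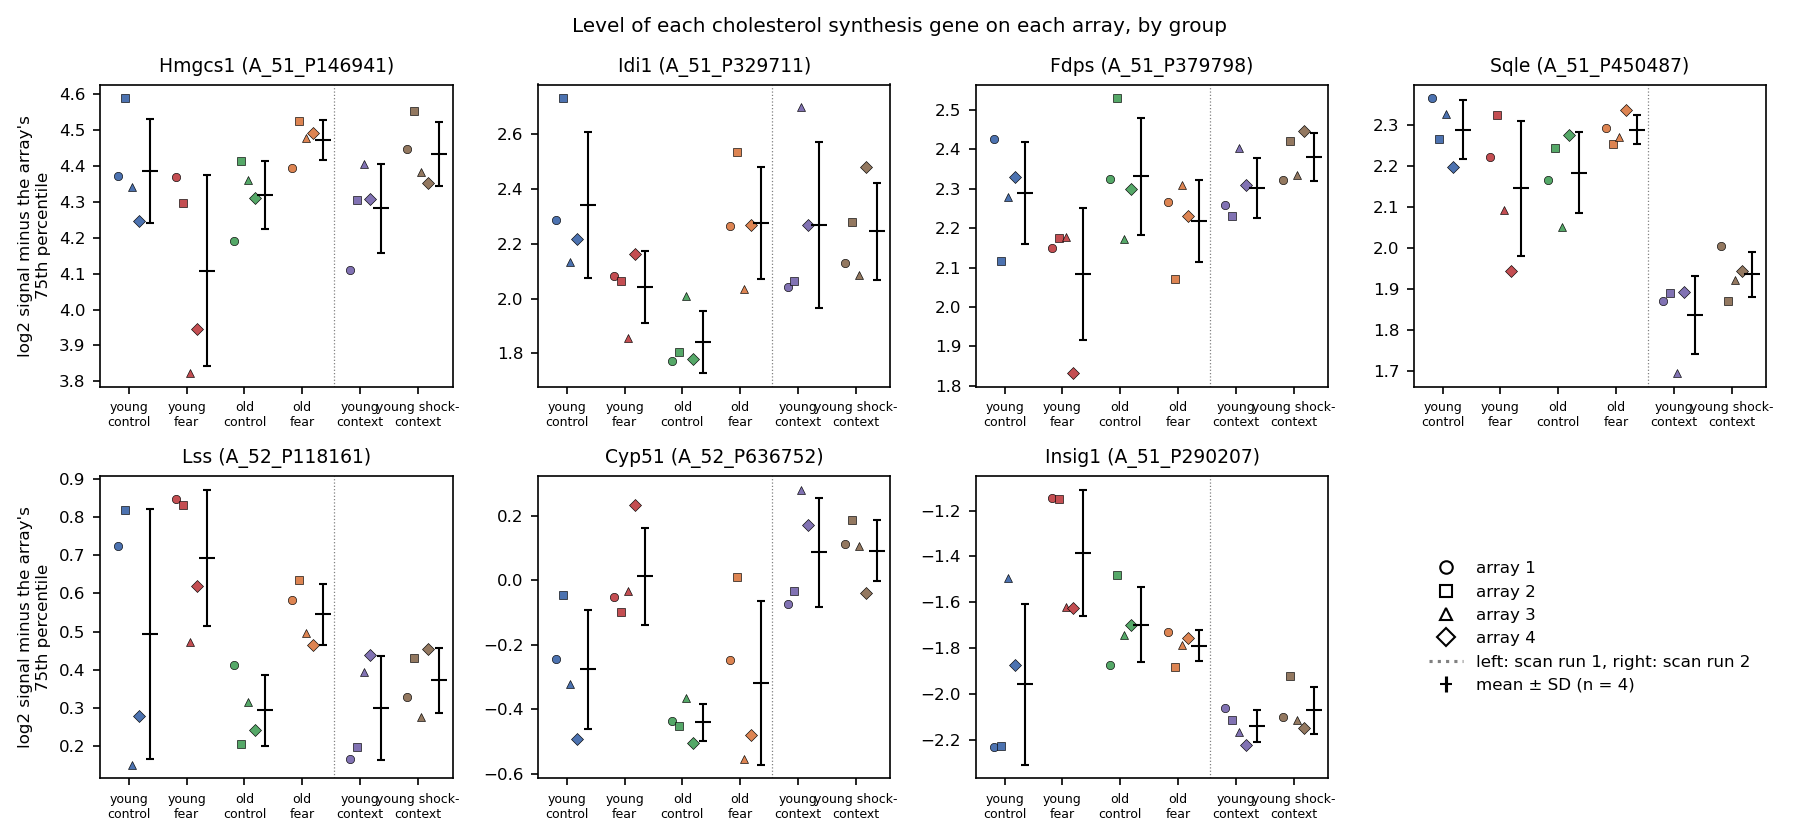
Log2 level of the leading probe of each of the 7 genes (vertical axis, log2 signal minus the array's 75th percentile) on each array, by group, with a marker for each replicate number and bars for the mean ± SD of 4 arrays; the dotted line divides the first scan run from the second. Insig1 is at -1.39 ± 0.28 in the young fear group against -1.96 ± 0.35 in the young control group, and the groups overlap.

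The probes of one gene share the RNA and the array, so subtracting a constant from an array leaves their ratio as it is. A background correction need not leave it unchanged where 1 probe is far dimmer, and no ratio was rerun under another setting. The log2 ratio of A_52_P388072 to the leading Hmgcs1 probe was -7.33, -7.75, -7.06 and -6.73 in the young control group and -4.87, -4.68, -4.97 and -5.31 in the young fear group. The groups were far apart, with a difference of 2.26 or 4.80-fold. For Idi1 the ratio was -5.45, -5.91, -4.98 and -5.06 in the controls and -4.23, -4.02, -4.07 and -4.45 in the fear group, again with no overlap and a difference of 1.16 or 2.23-fold. For Insig1 the order was the other way, with the upstream probe losing ground to the leading probe. Its ratio was -1.28, -1.23, -1.39 and -1.14 in the controls and -2.22, -2.07, -1.90 and -1.95 in the fear group, a difference of -0.77. Each of these 3 differences had p = 0.0286 in an exact two-sided permutation test, the smallest that 4 against 4 arrays can give, and 0.0858 after Benjamini-Hochberg adjustment over the 9 ratios of the members. The other 6 ratios overlapped between the groups.

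Such unequal changes were common on these arrays. Of 12378 ratios between another probe and the leading probe of a gene, 38.9% did not overlap between the young fear and young control groups, beside 3 of the 9 ratios of the members. Of 3010 genes with more than 1 probe called in this comparison, 1170, or 38.9%, had called probes of opposite sign, as Hmgcs1 did in the fit reported. Among 4039 probe pairs of 3546 genes that lie 1000 to 5000 bases apart, the ratio of the upstream to the downstream probe changed by a median of 0.10 after fear conditioning at 3 months, with 5th and 95th percentiles of -1.20 and 1.44. The Hmgcs1 ratio lay beyond the 95th percentile, while those of Idi1 and Insig1 lay inside the range. At 16 months the median was -0.10 and the percentiles were -0.68 and 0.51.

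In the old mice the ratios were compared between the groups in the same way. The Hmgcs1 ratio was -6.89, -7.09, -7.42 and -7.22 in the old control group and -7.33, -7.40, -7.05 and -7.29 in the old fear group, which overlapped. The Insig1 ratio differed by -0.20 between these groups, with overlap. Of the 9 ratios 2 did not overlap between the old fear and old control groups, beside 5.4% of all ratios, Idi1 at -0.61 and Cyp51 A_52_P164161 at 0.36. Between the old fear and young fear groups 4 did not overlap, beside 45.3%, between the old control and young control groups 1 did not, beside 2.12%, and between the context and shock-context groups all 9 overlapped, beside 6.28% that did not. In the young context group the Hmgcs1 ratio was -5.94, -5.96, -6.33 and -6.46 and in the young shock-context group -6.52, -6.12, -6.03 and -6.10. These values of the second scan run lay between those of the young control and young fear groups of the first, and the run and the groups cannot be told apart.

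**Figure D2:**
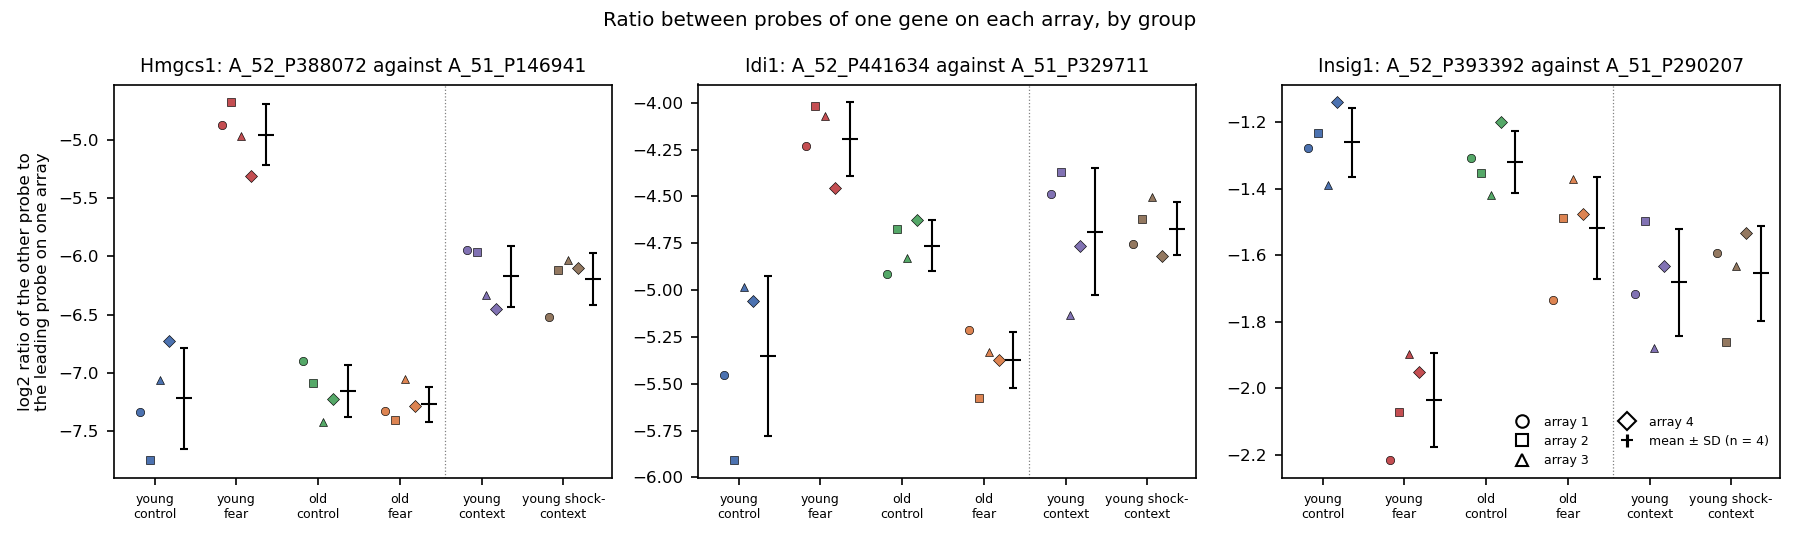
Log2 ratio of another probe to the leading probe of the same gene within each array (vertical axis) for Hmgcs1, Idi1 and Insig1, by group, with a marker for each replicate number and bars for the mean ± SD of 4 arrays; the dotted line divides the scan runs. The 4 young fear arrays lie above the young controls for Hmgcs1 and Idi1 and below them for Insig1.

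At 16 months the same training was set against handling. No member passed in the comparison of the old fear with the old control group, with adjusted p-values of 0.208 to 0.816 (limma), and 0.138% of all genes passed, 0.122% higher and 0.0153% lower. That background was 36 genes, while 3616 genes had an unadjusted p under 0.05. Of the 12 thalamus markers 5 were higher and none lower in this comparison, and the part of that tissue was not tested. The members' median change was 0.12 against -0.075 for all genes.

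Among the leading probes Idi1 had the largest difference at 16 months. Its leading probe was at 1.77, 1.80, 2.01 and 1.78 in the old control group and at 2.26, 2.54, 2.04 and 2.27 in the old fear group. Every fear array was above every control array, and the difference of 0.44 ± 0.15 did not pass after adjustment (adjusted p = 0.208, limma). Within the 4 slides it ran from 0.03 to 0.73 and was positive in all 4. The other Idi1 probe, which rose in the young mice, was at -3.14, -2.87, -2.82 and -2.85 in the old controls and at -2.95, -3.04, -3.30 and -3.11 in the old fear group, a difference of -0.18 (adjusted p = 0.49, limma over all probes).

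Lss also did not overlap at 16 months, with 0.41, 0.20, 0.32 and 0.24 in the old control group and 0.58, 0.64, 0.50 and 0.46 in the old fear group, and its difference of 0.25 ± 0.13 did not pass (adjusted p = 0.382, limma). Hmgcs1 was at 4.19, 4.41, 4.36 and 4.31 in the old controls and at 4.39, 4.53, 4.48 and 4.49 in the old fear group, where old fear array 1 lay within the control range. Sqle, at 2.17, 2.24, 2.05 and 2.27 against 2.29, 2.25, 2.27 and 2.34, overlapped as well. Fdps was at 2.32, 2.53, 2.17 and 2.30 in the old controls and at 2.27, 2.07, 2.31 and 2.23 in the old fear group, and those values overlapped. Cyp51 was at -0.44, -0.45, -0.37 and -0.50 against -0.25, 0.01, -0.55 and -0.48. Insig1 was at -1.87, -1.48, -1.74 and -1.70 against -1.73, -1.88, -1.78 and -1.76, so the old fear arrays lay together inside or at the edge of the old control range.

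The probe A_52_P388072 of Hmgcs1, with the 3.96-fold rise at 3 months, was at -2.70, -2.67, -3.06 and -2.91 in the old controls and at -2.93, -2.88, -2.58 and -2.79 in the old fear group. The groups overlapped and differed by 0.04 (adjusted p = 0.942, limma over all probes). Cyp51 probe A_52_P164161 was at -1.46, -1.60, -1.33 and -1.60 in the old controls and at -1.01, -0.88, -1.10 and -1.06 in the old fear group. It did not overlap and differed by 0.49 ± 0.10, with an adjusted p of 0.0596 (limma over all probes). No probe of the 16 passed at 16 months, beside 0.124% of all probes.

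**Figure D3:**
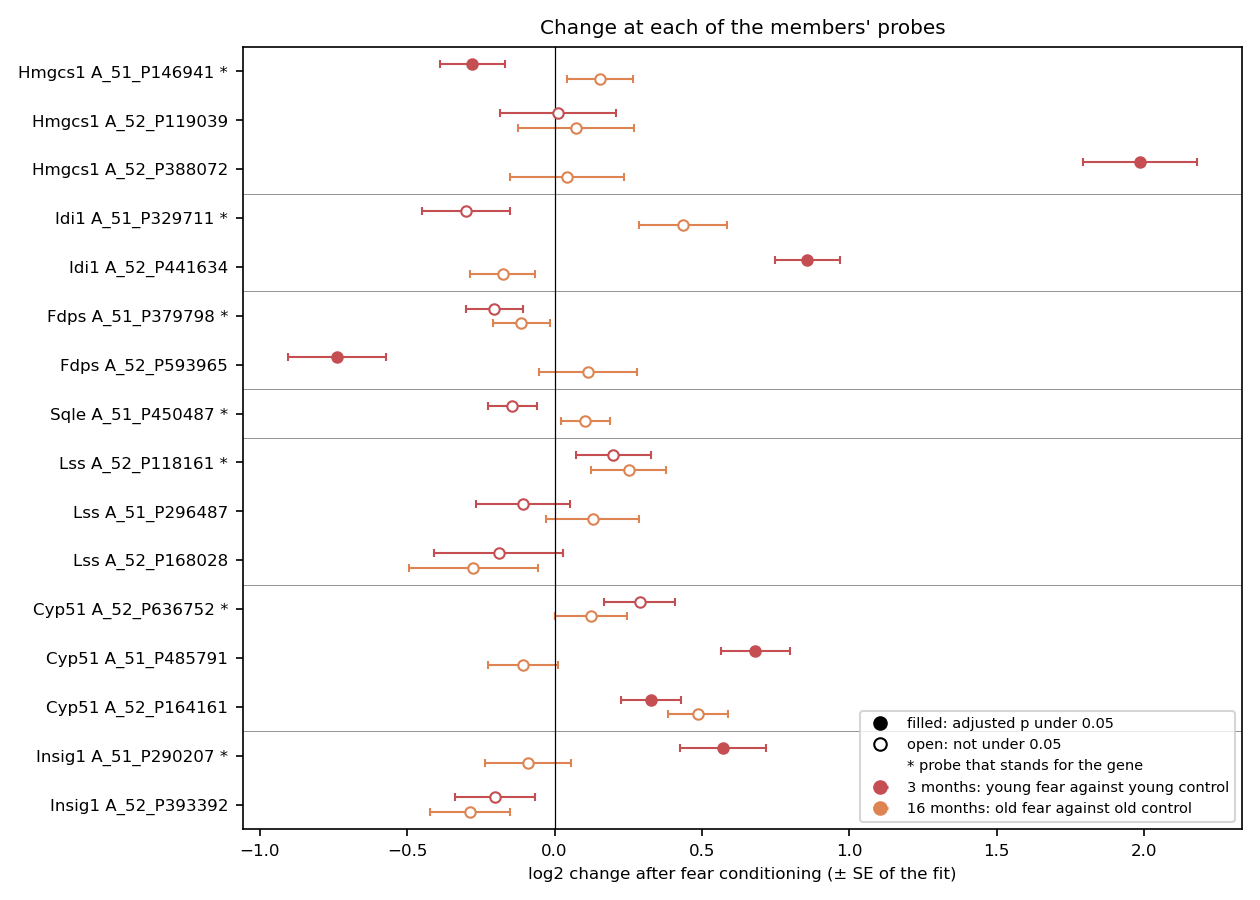
Log2 change after fear conditioning at each of the 16 probes (horizontal axis, ± SE of the fit), at 3 months and at 16 months, with filled points for an adjusted p under 0.05 and an asterisk at each leading probe. At 3 months the Hmgcs1 probe A_52_P388072 stands at 1.98 while the leading Hmgcs1 probe is at -0.28, and at 16 months every point is open.

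Whether the response differed between the ages was tested as the change at 16 months minus the change at 3 months. This difference passed for 3 members, beside 24% of all genes, 16.1% higher and 7.9% lower. It was 0.74 ± 0.21 for Idi1 (adjusted p = 0.0144), 0.43 ± 0.16 for Hmgcs1 (adjusted p = 0.0493) and -0.66 ± 0.20 for Insig1 (adjusted p = 0.0217, all by limma). The Idi1 difference was positive within all 4 slides, from 0.31 to 1.40. It passed in 25 of 30 settings and lost the call with median scaling, with normexp, in the deposited table and with array pairs as a random block or averaged (adjusted p = 0.0599 to 0.154, limma). The Insig1 difference ran from -1.48 to 0.08 and passed in 24 of 30 settings, and without young control array 2 its adjusted p was 0.0538. The Hmgcs1 difference passed in 8 of 30 settings. Of the fits that left out 1 array, it passed only without young control array 4, old control array 2 or young fear array 1 or 2, and the other 12 gave adjusted p-values of 0.0538 to 0.116. With the slide as a replicate block the adjusted p was 0.0596 for Hmgcs1 and 0.0552 for Insig1 (limma). The members' median was 0.09 and that of all genes was 0.24.

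Among the 16 probes, 7 passed this test, beside 26% of all probes. The difference was -1.94 ± 0.27 for Hmgcs1 A_52_P388072 (adjusted p = 3.14e-05), -1.03 ± 0.16 for Idi1 A_52_P441634 (adjusted p = 6.36e-05) and -0.79 ± 0.17 for Cyp51 A_51_P485791 (adjusted p = 0.00132, all by limma over all probes). All 3 are among the 5 probes that rose at 3 months. Fdps A_52_P593965 went the other way, by 0.85 ± 0.24 (adjusted p = 0.0103, limma over all probes). For Hmgcs1 and Idi1 the age difference therefore had opposite signs at the 2 probes.

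The trained mice of both ages were also compared directly. Old fear against young fear gave 3 members, beside 37.9% of all genes, 24.9% higher and 13% lower. Hmgcs1 was higher at 16 months by 0.36 ± 0.11 (adjusted p = 0.0122, limma), with the lowest old fear array above the highest young fear array, and this passed in all leave-out fits except without young fear array 3 (adjusted p = 0.0603). In the deposited table that difference was -0.0089. Insig1 was lower by 0.40 on the log2 scale (-0.40 ± 0.14, adjusted p = 0.0322, limma) with no overlap, and lost the call without young fear array 1 or 2 or without old fear array 2, 3 or 4 (adjusted p = 0.0524 to 0.115). Cyp51 was lower (-0.33 ± 0.12, adjusted p = 0.0369, limma) with overlap, and lost the call without young fear array 3 or 4 or without old fear array 3 or 4 (adjusted p = 0.0525 to 0.14). With the replicate number, which is the slide, as a block, the Insig1 and Cyp51 calls were lost (adjusted p = 0.0702 and 0.0599, limma). Among the 16 probes 1 was higher and 5 lower, beside 39.9% of all probes, led by Hmgcs1 A_52_P388072 at -1.95, Idi1 A_52_P441634 at -0.95 and Cyp51 A_51_P485791 at -0.67 (adjusted p = 1.22e-07, 8.51e-07 and 9.47e-05, limma over all probes).

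Age alone, old control against young control, gave no called member. Among all genes 0.695%, or 182, passed, and 2516 had an unadjusted p under 0.05. Idi1 was lower in the old controls with no overlap, 1.77 to 2.01 against 2.14 to 2.73, a difference of -0.50 ± 0.15 that did not pass (adjusted p = 0.164, limma). Its difference was the largest in size of the 7, whose adjusted p-values ran from 0.164 to 0.953. No probe of the 16 passed, beside 0.547% of all probes. The members' median was -0.11 and that of all genes -0.0016.

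The context and shock-context groups, which share a scan run, contrast exposure to the chamber without a shock with an immediate shock followed by exposure. No gene passed, and 1326 had an unadjusted p under 0.05. The percentage called was 0 for all genes, and the members' adjusted p-values were 0.975 to 1 (limma). Hmgcs1 was at 4.11, 4.31, 4.41 and 4.31 in the context group and at 4.45, 4.55, 4.38 and 4.35 in the shock-context group. Idi1, at 2.04, 2.06, 2.70 and 2.27 against 2.13, 2.28, 2.09 and 2.48, had its highest value on context array 3. Insig1 was at -2.06, -2.11, -2.17 and -2.22 against -2.10, -1.92, -2.11 and -2.15. The groups overlapped for all 3. Over the 7 members the differences ran from -0.15 to 0.023, with a median of -0.07 beside -0.04 for all genes.

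Across scan runs most genes passed, so the members' calls there describe groups and runs together. The context group against the young control group gave 70.5% of genes called, 14% higher and 56.5% lower, and the shock-context group gave 66.9%, 12.2% higher and 54.7% lower. The median of all genes was -0.49 for the context group and -0.43 for the shock-context group, and all 7 members lay above it. Sqle was the 1 member called lower in both. It was at 1.87, 1.89, 1.69 and 1.89 in the context group and at 2.00, 1.87, 1.92 and 1.94 in the shock-context group, all below the lowest young control at 2.20. The differences were -0.45 ± 0.08 (adjusted p = 6.42e-05) and -0.35 ± 0.08 (adjusted p = 0.000851, both by limma). Relative to the median of all genes they were 0.036 and 0.071, so Sqle lay nearer that median than any other member. With median scaling the context difference was -0.09 with an adjusted p of 0.443 (limma), so it kept its direction and lost its call. The shock-context difference turned to 0.03. Cyp51 was at -0.07, -0.03, 0.28 and 0.17 in the context group and at 0.11, 0.19, 0.11 and -0.04 in the shock-context group, higher than in the young controls by 0.36 and 0.37 (adjusted p = 0.0115 and 0.0114, limma). Among the 16 probes 9 and 8 passed against the young controls, beside 68.9% and 65.5% of all probes, and Hmgcs1 A_52_P388072 was higher by 0.94 and 1.07 (adjusted p = 0.000216 and 6.12e-05, limma over all probes).

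Young fear against the context group gave 65.9% of genes called, and against the shock-context group 64.9%, with 47.7% and 46.6% higher and 18.3% lower in each. The median of all genes was 0.34 and 0.31, and 2 of the 7 members lay above it in each comparison. Insig1 was higher in the young fear group than in either, by 0.75 ± 0.14 and 0.69 ± 0.14 (adjusted p = 0.000126 and 0.000356, limma), with no overlap. With normexp the second of these lost its call, at an adjusted p of 0.113. Hmgcs1 A_52_P388072 was at -1.83, -1.66, -1.92 and -2.15 in the context group and at -2.07, -1.57, -1.64 and -1.75 in the shock-context group, all below the young fear arrays. It differed from them by 1.04 and 0.91 (adjusted p = 8.85e-05 and 0.000381, limma over all probes, where 65.9% and 64.8% of probes passed). The Lss and Sqle differences against the context group, 0.39 and 0.31, were 0.18 and 0.09 with median scaling and did not pass there (adjusted p = 0.386 and 0.454, limma). Against the shock-context group Lss and Sqle were at 0.32 and 0.21 (adjusted p = 0.0323 and 0.032), and Fdps and Hmgcs1 at -0.30 and -0.33 (adjusted p = 0.0106 and 0.0139, all by limma). Relative to the median of all genes Lss was at 0.0094, Sqle at -0.10, Fdps at -0.61 and Hmgcs1 at -0.64. With median scaling the Sqle difference turned to -0.029. Lss lost that call without shock-context array 1 or 3 or young fear array 1 or 2, and Sqle without shock-context array 2, 3 or 4 or young fear array 1 or 2. Fdps lost it without young fear array 4 and Hmgcs1 without young fear array 3 or 4, and the adjusted p-values of these fits were 0.05 to 0.129.

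The rest of the pathway was counted in lists of genes. Of 15 other enzymes listed with cholesterol synthesis, among them the branch enzyme Ggps1, 8 fell and 1 rose in the young fear group. Their median was -0.38 beside -0.35 for all genes, with 43.4% of all genes called. Ebp, the sterol isomerase, fell by 1.41 (SE 0.12, adjusted p = 2.61e-08, limma). Msmo1, a sterol demethylase, and Tm7sf2, a sterol reductase, fell by 0.93 and 0.78, and Ggps1, which draws farnesyl diphosphate into protein prenylation, fell by 0.59 (adjusted p = 3.51e-06, 4.34e-06 and 2.1e-05, limma). Nsdhl, a sterol dehydrogenase, was the 1 that rose, by 0.64 ± 0.11 (adjusted p = 7.47e-05, limma), and was named after its value was seen.

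Of 9 genes of sterol sensing and SREBP-driven uptake, 6 fell and none rose, with a median of -0.51, beside 30.3% of all genes lower and a median of -0.35. Stard4, a cholesterol carrier, fell by 1.55 (SE 0.12, adjusted p = 1.27e-08, limma). Mbtps1 and Mbtps2, the proteases that release SREBP, fell by 0.93 and 0.70, and Insig2, the relative of Insig1, fell by 0.51 (adjusted p = 2.81e-05, 0.00481 and 0.000422, limma). With median scaling 3 of the 9 fell, Insig2 not among them (adjusted p = 0.0514, limma), and Mbtps2 did not pass with quantile normalization, with normexp or in the deposited table (adjusted p = 0.197 to 0.278, limma).

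Of 11 genes of sterol efflux and turnover, 3 fell and 1 rose, with a median of 0.06, and these 4 of 11 did not stand above the 43.4% of all genes called. Npc2, which carries cholesterol out of lysosomes, fell by 0.58, and Ch25h, the 25-hydroxylase, fell by 0.82 (adjusted p = 0.000137 and 0.000728, limma). Apoe, the main brain apolipoprotein, fell by 0.43 (adjusted p = 0.00201, limma) but was at 0.15 with quantile normalization and 0.17 in the deposited table. Cyp46a1, the neuronal 24-hydroxylase, rose by 0.40 ± 0.13 (adjusted p = 0.0433, limma), and lost the call without young control array 1 or 2 or young fear array 3 or 4 (adjusted p = 0.102 to 0.126). Of 9 genes of fatty acid synthesis, 5 rose and 1 fell, with a median of 0.31, beside 13.1% of all genes higher and 30.3% lower. Across the settings run 3 to 7 of these 9 rose. Acly, which makes cytosolic acetyl-CoA, rose by 0.69, the desaturases Fads1 and Fads2 by 0.90 and 0.42, and Elovl6, an elongase, fell by 0.44 (adjusted p = 9.46e-05, 0.00351, 0.000845 and 0.000821, limma). Choroid plexus and thalamus markers moved in the same comparison, as given above, and their part in these counts was not tested.

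At 16 months none of the genes of these 4 lists passed, beside 0.138% of all genes. In the test of the difference between the ages, 7 of the 15 other enzymes were higher and 1 lower, and 4 of the 9 sterol sensing genes were higher and none lower, beside 24% of all genes called. Ebp differed by 1.13 ± 0.17 (adjusted p = 8.58e-05, limma) and Stard4 by 1.82 ± 0.18 (adjusted p = 1.53e-06, limma). Both passed in all 30 settings run. In those settings 5 to 7 of the other enzymes and 2 to 5 of the sterol sensing genes were higher. Of the efflux genes 2 were higher and 1 lower, led by Ch25h at 1.19 (adjusted p = 0.00134, limma), and of the fatty acid genes 1 was higher and 2 lower, with Elovl6 at 0.58 and Acly at -0.72 (adjusted p = 0.00322 and 0.00389, limma). Across the settings run 0 to 2 of the efflux genes were higher and 0 to 4 of the fatty acid genes lower.

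**Figure D4:**
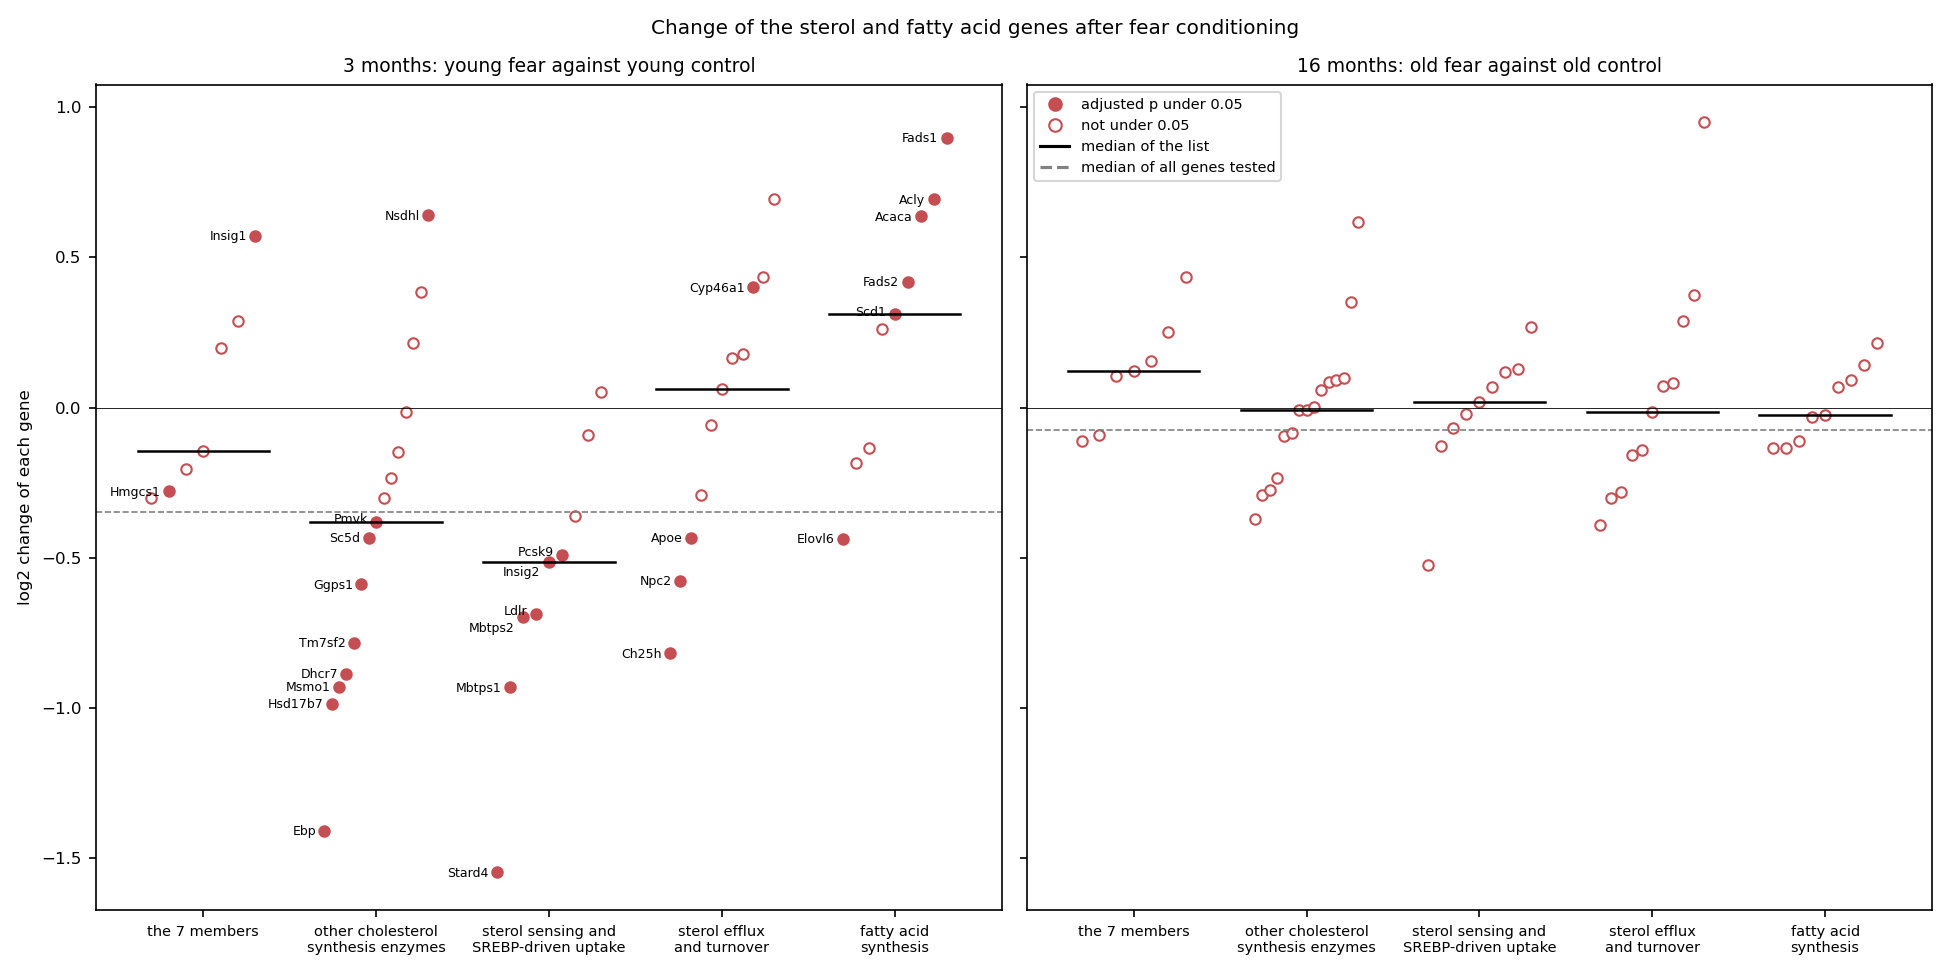
Log2 change after fear conditioning of each gene of the members and of the 4 pathway lists (vertical axis) at 3 months and at 16 months, with filled points for an adjusted p under 0.05, a solid line for the median of each list and a dashed line for the median of all genes tested. At 3 months Ebp and Stard4 lie lowest, at -1.41 and -1.55, and at 16 months every point is open.

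The 7 genes did not move as a block across the arrays. After the mean of each scan run was removed, Pearson's r of each leading probe with the members' mean profile over the 24 arrays was 0.69 for Hmgcs1, 0.69 for Lss, 0.60 for Idi1, 0.53 for Sqle, 0.30 for Cyp51, 0.17 for Fdps and 0.10 for Insig1, each of which is part of that mean. Between pairs of members it ran from 0.65 for Cyp51 with Lss to -0.65 for Fdps with Cyp51. The genes whose profile was most like the members' mean were Rab30 and Ppfia1 at 0.82, Zswim6 at 0.80 and Zfp830 and Golga5 at 0.79. All points share the array scaling.

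RefSeq promoter windows of 300 bases, 250 before and 50 after the start on the GRCm38.p6 assembly, were found for 5 members, all but Sqle and Fdps. The sterol element letters TCACNCCAC, on either strand, were present in the window of Hmgcs1 and in none of the other 4, beside 1.24% of 32851 windows. The letters CCAAT were in all 5 windows, beside 37.4%, and GGGCGG in all 5, beside 35.7%, either strand counted.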

How the data were processed

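Intensity values of single-colour Agilent arrays were taken as deposited. Per the file headers they were extracted by the authors with Agilent Feature Extraction 9.5.3.1, and the intensity used is its processed signal, already background-subtracted. Per the labels, 600 ng of total RNA per mouse was amplified with Cy3. Log2 of the intensity minus the 75th percentile of the array was tested with limma 3.58.1 (R 4.3.3, statmod 1.5.0), over all 24 arrays with the 6 groups as terms, after leaving out control spots, outlier spots and probes above background on fewer than 4 arrays. A gene was represented by its brightest probe, and 10 comparisons were made, each adjusted over all genes or all probes by Benjamini-Hochberg. The deposited log2 value table, whose normalization is not given in the sources used here, served as an alternative. Its column medians were all 8.57, and its rank correlation with the scanner's mean signal was at least 0.9997, so its direction is that of the signal.

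The members and the gene lists were chosen with earlier results of these data known, and the ratios between probes and the probe positions were chosen after their values were seen. The text names all members with all their probes, up to 4 genes per pathway list, those of smallest adjusted p in the comparison, up to 2 genes per marker list and the 5 genes most like the members' mean profile. Nsdhl is named outside this rule, after its value was seen. Probe positions are the mm9 coordinates of the second run's files. The replicate numbers of the control and fear groups coincide with the 4 slides. Same-numbered arrays of the first run had deviations that correlated by -0.42 to 0.65, with 15 of 24 pairs over 0.1, and the mice were treated as unpaired. No arrays held identical values. The fit was run on simulated data with independent noise on each array. That simulation cannot show how the fit behaves where arrays are correlated or many genes change. The p-values treat the arrays of a group as independent, and 4 arrays per group limit their precision. Arrays of a pair lay close in some values, such as the choroid plexus markers of the young fear group. These were at -3.15 and -3.08 on arrays 1 and 2 and at -1.81 and -1.82 on arrays 3 and 4. The consensus correlation within array pairs was 0.37. Deviations from the group mean over all genes correlated by -0.66 to 0.39 within the 8 pairs, with 2 over 0.1. In the other 16 pairings within a group of the first run they correlated by -0.79 to 0.25, with 1 over 0.1. With pairs as a random block no member passed for the difference between the ages. What the arrays of a pair share was not tested.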

Additional observations from a re-analysis of the deposited data

Results flagged for a closer look

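Of the 42 sets of 4 arrays (7 leading probes in 6 groups), 3 held an array that stood apart from the other 3 by Dixon's ratio at its 95% critical value, and chance gives about 1 in 20. The ratio was 0.882 for Sqle in the young context group, where array 3 at 1.69 lay below the others at 1.87 to 1.89. It was 0.871 for Idi1 in the old control group, where array 3 at 2.01 lay above the others at 1.77 to 1.80. It was 0.921 for Fdps in the young fear group, where array 4 at 1.83 lay below the others at 2.15 to 2.18.

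The change after fear conditioning differed between the ages by the limma test of the difference itself (16 months minus 3 months) for 3 leading probes and 4 other probes. The differences were 0.43 for Hmgcs1, 0.74 for Idi1 and -0.66 for Insig1 at the leading probes. At the other probes they were -1.94 for Hmgcs1 A_52_P388072, -1.03 for Idi1 A_52_P441634, 0.85 for Fdps A_52_P593965 and -0.79 for Cyp51 A_51_P485791. Beside them 24% of all genes and 26% of all probes passed the same test. The choroid plexus markers differed between the ages in the same test, 11 of 11 higher with a median of 3.13, and their part in these differences was not tested.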

How the results depend on the processing

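Of the values of single genes and probes under other settings, 2250 kept their direction and their side of the threshold, 153 lost and 38 gained a call, 18 values called in either fit changed direction and 82 called in neither changed sign. With 1 array left out, 1637 kept both, 90 lost and 12 gained a call. The count of members called and their median change kept in every setting run for old fear against old control, old control against young control and young context against young shock-context. The cause of the changes below was not tested. The 4 arrays per group and the distance of dim probes from background limit how small a change can be seen.

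For young fear against young control, the count of members called was 1 in place of 2 with quantile normalization, with array pairs as a random block or averaged and with the compared arrays alone, and 0 with normexp. The members' median was 0.11 with quantile normalization, -0.0011 with median scaling and 0.077 in the deposited table. For old fear against young fear the count of 3 became 0 with normexp or averaged pairs and 1 with pairs as a random block or the compared arrays alone, and the median was -0.032 with quantile normalization, 0.019 with normexp and -0.0089 in the deposited table. For the difference between the ages the count of 3 became 1 with median scaling, in the deposited table and with the compared arrays alone, and 0 with normexp and with pairs as a random block or averaged. The count for young fear against young shock-context, 5, became 1 with normexp and 3 in the deposited table, with averaged pairs and with the compared arrays alone, and that for young shock-context against young control, 2, became 1 with normexp. The medians across scan runs moved as well: to 0.091, 0.25 and 0.15 for young context against young control and 0.070, 0.28 and 0.19 for young shock-context against young control (quantile, median scaling, deposited table, with 0.039 for the latter with normexp), and to -0.29 and -0.32 for young fear against young context and young shock-context with median scaling.

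With the replicate block (the slide of the first run) 1 member was called in each of young fear against young control, old fear against young fear and the difference between the ages. The adjusted p (limma) was then 0.0536 for Hmgcs1 in the first, 0.0599 for Cyp51 and 0.0702 for Insig1 in the second, and 0.0596 for Hmgcs1 and 0.0552 for Insig1 in the third. No other call of a leading probe at the first run changed under the block. With single arrays left out the counts ran from 1 to 3 in each of these comparisons, 2 to 3 for young context and 2 throughout for young shock-context against young control, and 3 to 4 for young fear against either. The median for young shock-context against young control ran from -0.11 to 0.032.

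Differences that were called in the fit reported or under the alternative, and changed sign between them, were these. Quantile normalization gave 0.11 for Hmgcs1 and 0.15 for Apoe in young fear against young control, 0.26 for Hmgcs1 in young context against young control, and, for Insig1 probe A_52_P393392, 0.085 and 0.19 in young context and young shock-context against young control and -0.066 in young fear against young context. Median scaling gave 0.027 for Sqle in young shock-context against young control and -0.029 in young fear against young shock-context. Normexp gave -0.47 for Hmgcs1 probe A_52_P119039 in young context against young control. The deposited table gave 0.077 for Hmgcs1 and 0.17 for Apoe in young fear against young control, -0.0089 for Hmgcs1 in old fear against young fear and 0.32 for Insig1 in young shock-context against young control. It also gave 0.26 and 0.34 for Insig1 probe A_52_P393392 in young context and young shock-context against young control, -0.13 for it in young fear against young context, and -0.047 and -0.074 for Idi1 probe A_52_P441634 in young fear against young context and young shock-context.

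Counts over all genes moved by more than 1.5 times with normexp, to 5333 of 26176 for young fear against young control, 5497 for old fear against young fear 2016 for the difference between the ages, 9784 for young fear against young context and 7930 for young fear against young shock-context, and with averaged pairs to 7293, 6473 and 2344 for the first 3 of these. For old fear against old control they ran from 0 with normexp or averaged pairs to 143 with the slide as a random block. For old control against young control they ran from 4 with averaged pairs to 361 with the slide as a random block.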
